A study of Arabidopsis thaliana with 32 samples.

Results

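The 59 genes described here are the neighbouring loci of Arabidopsis chromosome 1 from AT1G55300 to AT1G55760, out of 37336 genes in the count tables. They were chosen by locus number around a run of genes that had stood higher in the q-lsu-KO mutant than in wild type (WT) in these same libraries. Values of q-lsu-KO over WT are therefore given below as a description without a test, and tests are kept for other comparisons. The interactions among these are built from the same genotype contrasts, so their p-values are not fully independent of the choice. Within the 59 loci, a run of 17 measured genes from EDA11 (AT1G55420) to AT1G55630 stood higher in q-lsu-KO. Its medians were near 2-fold, over 13 genes in shoots and 17 in roots, and both end genes were measured in roots only. By the rule given below, 15 of the 17 were raised, and AT1G55450 stood well above 2-fold in shoots. The measured genes on both sides had medians near the WT level.

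q-lsu-KO is 1 transgenic line in the Col-0 background with a deletion in all 4 LSU genes, small sulfur-deficiency-induced proteins on chromosomes 3 and 5, and WT is Col-0. Shoots and roots of both genotypes were sampled at 15 days of age, after 10 days on medium with 1 mM sulfate ([nS]) and 5 days on fresh [nS] medium or on medium whose magnesium sulfate had been exchanged for magnesium chloride ([dS]). Each of the 8 groups had 4 replicate libraries of 3′RNA-seq, a method that counts reads near the 3′ end of transcripts, from at least 10 seedlings each. Both genotypes of 1 tissue under 1 sulfur supply shared a sequencing pool, so genotypes were compared within a pool, while the effect of sulfur and that of pool cannot be told apart, nor can tissue and pool.

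Library totals ran from 893225 to 2857129 counts. LSU2, a targeted gene, had 2 to 25 counts in the 16 q-lsu-KO libraries, against 192 to 1202 counts in the 16 WT libraries. The summed level of 5 shoot markers was 33711 to 51298 counts scaled to a common library size (CPM) in shoots and 60.4 to 309 CPM in roots, and that of 6 root markers was 0 to 8.41 CPM in shoots and 537 to 881 CPM in roots. CPM were scaled within each tissue, so shoot and root CPM are not on one scale. The study names the libraries as biological replicates but does not give whether they grew on separate plates, so each p-value rests on the spread between these samples alone. In such bulk samples, fewer cells of a type and less RNA per cell cannot be told apart.

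Genes that lie side by side in the Arabidopsis genome usually serve unrelated functions, and the stretch is of that kind. It holds genes for plastid protein folding and photosynthesis, for transcription and RNA reading, for the breakdown of branched-chain amino acids, for a brassinosteroid receptor and for ion transport, besides a tandem cluster of genes with cysteine- and histidine-rich C1 domains. A change that follows the order of loci therefore joins genes that are not known to share a pathway.

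All 59 loci matched RefSeq (TAIR10.1), which was used only for names, order, strand and overlaps. Of them, 36 passed the count filter in at least 1 tissue, namely 30 in shoots, 34 in roots and 28 in both. The other 23 had too few counts: 8 had none in any library, 5 had fewer than 20 over the 32 libraries, and 10 had at least 20. In addition, 16 of the 59 overlap another gene, and the strand setting of the counting is not given in the sources used here, so reads of overlapping pairs cannot be assigned with certainty.

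A gene was taken as raised when its fitted level in q-lsu-KO was over 1.5-fold that in WT in at least 3 of the 4 conditions (shoot and root, [nS] and [dS]), or in both conditions of the tissue where it was measured. The run was the longest stretch of raised genes with no more than 1 unraised gene in a row. It held 17 measured genes among 28 loci, and 15 of the 17 were raised. Where a rise was asked for in every condition, or where replicate 2 of q-lsu-KO [nS] shoots was left out, the run ended at AT1G55530 with 11 measured genes, and with a stricter limit on the fold it held 9, from AT1G55450 to AT1G55530. Median log2 fold changes of the run (q-lsu-KO over WT) were 0.87 in [nS] shoots and 0.89 in [dS] shoots over 13 genes, and 0.94 in [nS] roots and 1.08 in [dS] roots over 17 genes. The 17 flanking genes measured in each tissue had medians of 0.08, -0.03, 0.05 and -0.0012 in the same order, and the medians over all genes lay between -0.02 and 0.01.

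**Figure D1:**
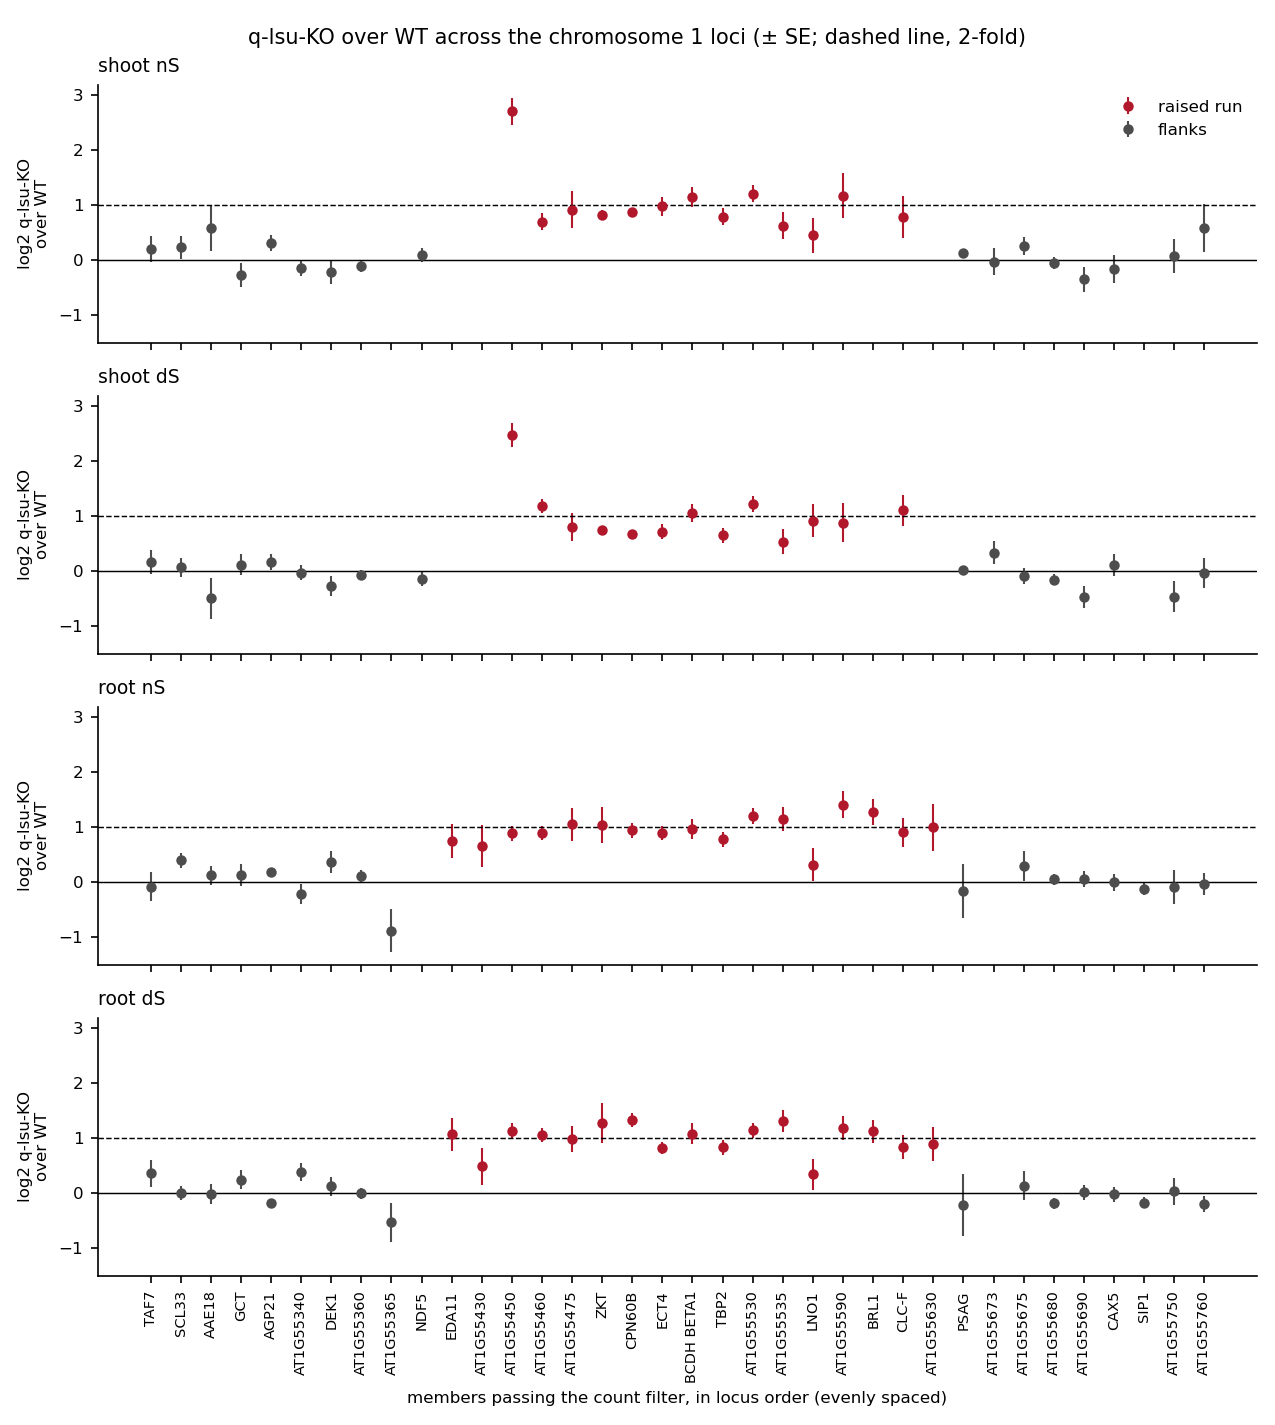
Log2 fold change of q-lsu-KO over WT (vertical axis, ± SE, 4 libraries against 4) for the 36 measured genes in locus order, in 1 panel per tissue and sulfur supply. Red points are the 17 genes of the run, grey points the flanks, and the dashed line marks a 2-fold rise; most of the run sits near the dashed line, with AT1G55450 above it in shoots at 2.71 and 2.48 and LNO1 below it in roots at 0.32 and 0.34.

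The rise was present in every q-lsu-KO library. The median over the run of log2(CPM + 1), set against the WT mean of the same condition, lay between 0.71 and 1.07 in the 16 q-lsu-KO libraries (median 0.91) and between -0.11 and 0.15 in the 16 WT libraries. The lowest q-lsu-KO library was replicate 3 of [dS] shoots at 0.71, and the highest WT library was replicate 4 of [nS] shoots at 0.15. For the flanks the same measure was -0.11 to 0.16 in q-lsu-KO and -0.10 to 0.09 in WT. The run was picked by this rise in these same libraries, and the flanks are the measured genes left over. Separate genotypes over the run and mixed ones over the flanks therefore follow from the choice and are not evidence of their own.

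**Figure D2:**
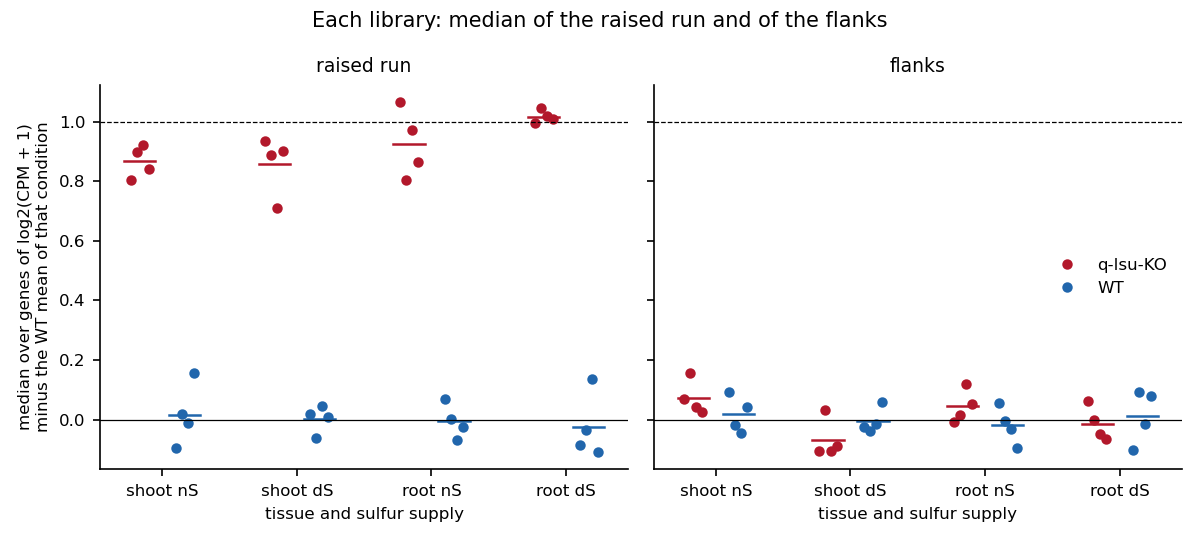
Median over genes of log2(CPM + 1) minus the WT mean of the condition (vertical axis), 1 point per library and a bar at the mean of 4 libraries, for the run (left) and the flanks (right), q-lsu-KO in red and WT in blue. Over the run the q-lsu-KO libraries lie at 0.71 or above and the WT libraries at 0.15 or below, and over the flanks they mix. The run was picked by this difference in the same libraries.

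At the fold change and adjusted p used for the whole table, 8 of 13 genes of the run were called higher in q-lsu-KO in [nS] shoots, where 3.36% of all tested genes were, and 10 of 13 in [dS] shoots, where 3.53% were. In [nS] roots 10 of 17 were called higher, with 0.113% of all tested genes, and in [dS] roots 11 of 17, with 0.119%. With DESeq2 in place of edgeR the [dS] root count was 7. No flanking gene was called by edgeR or by DESeq2 in any of the 4 conditions. At an unadjusted edgeR p under 0.05, the flanks had 1 of 17 in [nS] shoots (18.8% of all tested genes) and 1 of 17 in [dS] shoots (17.6%). In roots they had 3 of 17 under [nS] (7.56%) and 2 of 17 under [dS] (7.63%). All 4 q-lsu-KO libraries lay above all 4 WT libraries for 8 of 13 genes of the run in [nS] shoots (7.28% of all tested genes), 10 of 13 in [dS] shoots (6.14%), 13 of 17 in [nS] roots (2.07%) and 16 of 17 in [dS] roots (2.31%). These counts describe how the genes were chosen and are not evidence of their own.

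Over the whole table, 12900 genes were measured in both tissues, and 14 of these (0.109%) were over 1.5-fold higher in q-lsu-KO in all 4 conditions. Of these 14, 11 were genes of the run, out of 13 of the run measured in both tissues, none was a flanking gene, and 3 lay elsewhere (AT2G33830, AT3G48360 and AT5G24490, named after their values were seen). The genes called higher in all 4 conditions numbered 7 (0.0543%) and all lay in the run: AT1G55450, AT1G55460, CPN60B, ECT4, BCDH BETA1, TBP2 and AT1G55530. The run was picked by a rise over 1.5-fold in these same conditions. The absence of flanking genes follows from that choice, and the share held by the run is not evidence of its own.

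The left edge lay within the cluster of C1-domain genes. AT1G55365 and NDF5 (AT1G55370), the latter named for cyclic electron flow that depends on the plastid NDH complex, were the last measured genes before it. NDF5 was measured in shoots only and had 55.8, 42.8, 46.3 and 53.8 CPM in q-lsu-KO [nS] shoots, against 49.9, 39.3, 46.6 and 49.3 CPM in WT [nS] shoots. Under [dS], shoots had 29.2, 38.6, 28.2 and 27.7 CPM in q-lsu-KO, against 35.2, 36.9, 31.5 and 36.1 CPM in WT. The genotypes overlapped under both supplies, and the log2 fold changes were 0.10 ± 0.13 and -0.14 ± 0.13.

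AT1G55365, an uncharacterised gene that overlaps NDF5 on the other strand, was measured in roots only. It had 7.00, 4.44, 2.17 and 4.41 CPM in q-lsu-KO [nS] roots, against 5.95, 10.3, 8.01 and 8.56 CPM in WT [nS] roots. Under [dS], roots had 1.70, 4.32, 6.29 and 8.09 CPM in q-lsu-KO, against 5.67, 7.07, 7.85 and 7.41 CPM in WT. It was the flanking gene farthest from the WT level, at -0.88 ± 0.39 and -0.53 ± 0.35, with 2 to 20 counts per root library and overlapping genotypes.

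Next in order come 4 loci with few or no counts, which narrow the edge only by their sums over 8 root libraries per genotype. AT1G55380, a C1-domain gene, had 29 counts in q-lsu-KO against 37 in WT, a ratio of 1.03 after scaling for depth (95% exact interval 0.611 to 1.72), and its neighbour AT1G55390, of the same family, had 25 against 39, a ratio of 0.842 (0.488 to 1.43). Both intervals lie below 2 but cover counting error only. AT1G55380 averaged 3.87 CPM in q-lsu-KO [nS] roots against 1.69 CPM in WT [nS] roots. Under [dS] it averaged 2.17 CPM in q-lsu-KO roots against 3.99 CPM in WT roots. These conditions went opposite ways, so the pooled ratio of AT1G55380 places the edge only loosely. AT1G55400 had no count, and AT1G55410, a transcribed pseudogene, had 13 against 9, a ratio of 1.90 (0.750 to 5.03) that does not place it on either side.

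EDA11, the first gene of the run, is a C1-domain gene named for a defect in embryo sac development. It had 17.5, 13.3, 5.41 and 14.0 CPM in q-lsu-KO [nS] roots, against 9.35, 7.85, 4.81 and 10.5 CPM in WT [nS] roots. In [dS] roots it had 10.8, 13.0, 14.9 and 10.8 CPM in q-lsu-KO, against 8.81, 2.95, 4.48 and 7.41 CPM in WT. The groups overlapped under [nS] and were separate under [dS], with log2 fold changes of 0.75 ± 0.32 and 1.08 ± 0.30.

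Its neighbour AT1G55430, of the same domain family, was not raised by the rule. It had 8.16, 14.4, 4.33 and 5.14 CPM in q-lsu-KO [nS] roots, against 4.25, 4.83, 6.01 and 2.85 CPM in WT [nS] roots. Under [dS], roots had 8.5, 5.76, 8.01 and 8.09 CPM in q-lsu-KO, against 5.04, 5.30, 5.61 and 5.70 CPM in WT. At 3 to 15 counts per library, its 0.66 ± 0.38 and 0.49 ± 0.33 lay within 2 SE of a 2-fold rise and within 2 SE of no change. The last C1-domain gene of the cluster, AT1G55440, had 16 counts in q-lsu-KO roots against 8 in WT roots, a ratio of 2.63 (1.06 to 7.09). Genes of this cluster are tandem copies and may share reads.

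AT1G55450, an S-adenosylmethionine-dependent methyltransferase gene, was the only gene of the run whose mean log2 fold change over the conditions lay more than 0.5 from that of a 2-fold rise, at 1.80 ± 0.09. Under [nS], shoots had 268, 295, 399 and 310 CPM in q-lsu-KO, against 40.8, 51.1, 35.3 and 65.9 CPM in WT. In [dS] shoots it had 345, 423, 467 and 574 CPM in q-lsu-KO, against 57.2, 76.2, 87.6 and 102 CPM in WT. The lowest q-lsu-KO shoot library was above the highest WT shoot library of its condition by a wide margin, and the log2 fold changes were 2.71 ± 0.24 and 2.48 ± 0.22.

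In roots the same gene was close to the rest of the run. It had 180, 124, 156 and 129 CPM in q-lsu-KO [nS] roots, against 64.6, 80.9, 70.1 and 107 CPM in WT [nS] roots. In [dS] roots it had 109, 149, 124 and 134 CPM in q-lsu-KO, against 68.0, 47.7, 58.9 and 58.1 CPM in WT. The groups were again separate, and the log2 fold changes were 0.89 ± 0.13 and 1.14 ± 0.13.

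The difference between shoots and roots was tested as an interaction of genotype and tissue over all 32 libraries. The choice of genes did not use this difference itself, but used the genotype contrasts it is built from. AT1G55450 was also singled out above with its shoot values seen, so its p-values are not independent of that choice. For AT1G55450 the log2 fold change was larger in shoots by 1.85 ± 0.30 under [nS] (edgeR adjusted p = 0.000631) and by 1.36 ± 0.28 under [dS] (adjusted p = 0.00765), with all 4 q-lsu-KO libraries above all 4 WT libraries in each of the 4 conditions. Of the 36 members, 1 was called for this interaction under [nS] and 2 under [dS], beside 1.89% and 1.73% of all tested genes.

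CPN60B (AT1G55490), the beta subunit of the plastid chaperonin that folds the large subunit of Rubisco, was the second gene called under [dS]. In [nS] shoots it had 537, 573, 583 and 560 CPM in q-lsu-KO, against 293, 292, 338 and 307 CPM in WT. Under [dS], shoots had 238, 259, 242 and 249 CPM in q-lsu-KO, against 166, 180, 142 and 130 CPM in WT. The levels were lower under [dS] in both genotypes and the genotypes stayed separate, at 0.87 ± 0.08 and 0.68 ± 0.08.

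In roots CPN60B had 71.1, 55.5, 55.2 and 63.2 CPM in q-lsu-KO under [nS], against 32.3, 33.2, 30.9 and 31.4 CPM in WT under [nS]. Under [dS] it had 61.8, 67.0, 76.1 and 62.0 CPM in q-lsu-KO roots, against 22.0, 28.3, 28.6 and 26.8 CPM in WT roots. The log2 fold changes were 0.94 ± 0.14 and 1.34 ± 0.13. Under [dS] the fold change was smaller in shoots than in roots by 0.63 on the log2 scale (-0.63 ± 0.15, edgeR adjusted p = 0.00749), although q-lsu-KO was higher than WT in both tissues. This call fell under the fold threshold without replicate 1 of WT [dS] roots, replicate 3 of q-lsu-KO [dS] roots or replicate 2 of WT [dS] shoots, at -0.55 each. A near copy, CPN60B2, may share reads with it.

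**Figure D3:**
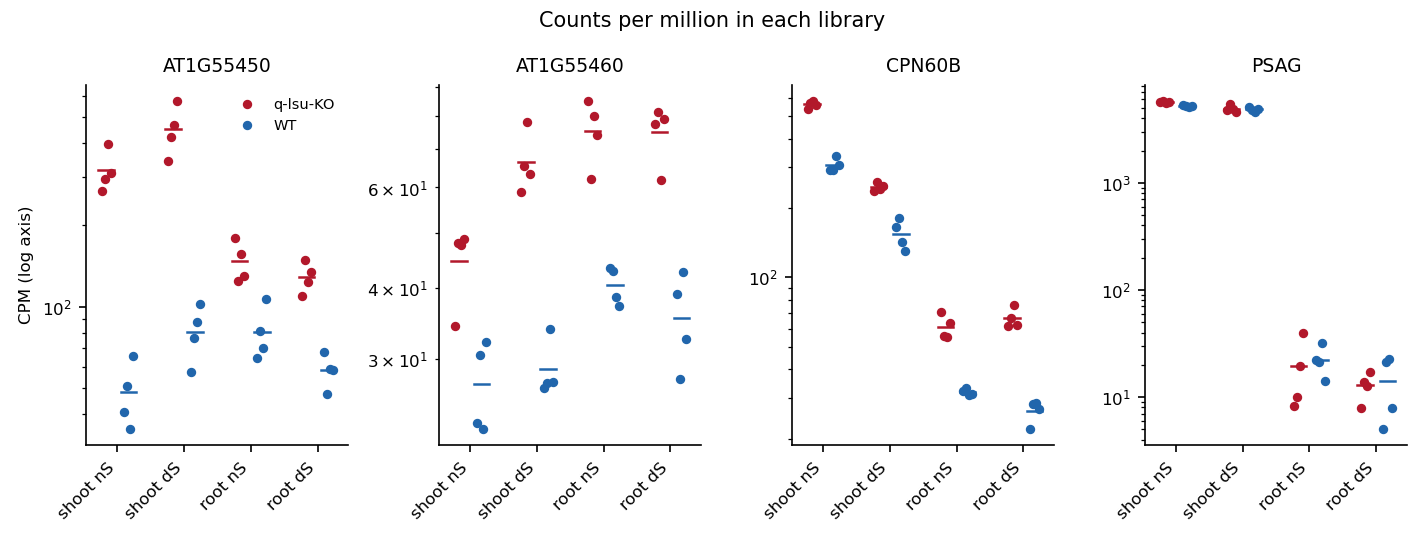
CPM in each library (log axis, 1 point per library, bar at the mean of 4) for AT1G55450, AT1G55460, CPN60B and PSAG in the 4 conditions, q-lsu-KO in red left of WT in blue. AT1G55450 shows the widest gap in shoots (268 to 574 CPM in q-lsu-KO, 35.3 to 102 CPM in WT), AT1G55460 and CPN60B gaps of 0.68 to 1.34 on the log2 scale, and PSAG, outside the run, overlapping libraries except in [nS] shoots, at 0.12. Shoot and root CPM are scaled separately.

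ZKT (AT1G55480), a thylakoid-associated protein with PDZ, K-box and TPR domains, overlaps CPN60B on the other strand and AT1G55475 on its own strand. Under [nS], shoots had 511, 454, 492 and 417 CPM in q-lsu-KO, against 268, 281, 254 and 252 CPM in WT. In [dS] shoots it had 247, 253, 236 and 230 CPM in q-lsu-KO, against 170, 140, 138 and 129 CPM in WT. Its shoot log2 fold changes of 0.83 ± 0.08 and 0.74 ± 0.08 were close to those of CPN60B.

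In roots, where ZKT was scarce, it had 14.0, 6.66, 10.8 and 12.5 CPM in q-lsu-KO under [nS], against 5.95, 5.43, 4.81 and 5.71 CPM in WT under [nS]. Under [dS] it had 9.07, 6.48, 8.58 and 5.40 CPM in q-lsu-KO roots, against 2.52, 2.36, 5.05 and 2.28 CPM in WT roots. The groups were separate under both supplies, at 1.04 ± 0.33 and 1.29 ± 0.37. The small uncharacterised gene AT1G55475 beside it had a mean log2 fold change of 0.94 ± 0.14, with a range of 0.81 to 1.05.

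AT1G55460 encodes a DNA/RNA-binding protein with a Kin17 region. It had 34.3, 47.9, 47.5 and 48.8 CPM in q-lsu-KO [nS] shoots, against 23.2, 30.5, 22.6 and 32.1 CPM in WT [nS] shoots. Under [dS], shoots had 58.9, 65.5, 78.2 and 63.5 CPM in q-lsu-KO, against 26.7, 27.2, 33.8 and 27.3 CPM in WT. The [nS] groups nearly met and the [dS] groups were far apart, at 0.70 ± 0.15 and 1.19 ± 0.13. In roots AT1G55460 had 85.1, 62.2, 80.1 and 74.2 CPM in q-lsu-KO under [nS], against 43.3, 42.9, 38.5 and 37.1 CPM in WT under [nS]. Under [dS], roots had 77.7, 81.4, 61.8 and 79.1 CPM in q-lsu-KO, against 39.0, 27.7, 42.6 and 32.5 CPM in WT. The root fold changes of 0.90 ± 0.13 and 1.07 ± 0.13 bracketed a 2-fold rise.

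ECT4 (AT1G55500) encodes a YTH-domain reader of N6-methyladenosine in RNA. In [nS] shoots it had 26.9, 40.3, 34.3 and 28.6 CPM in q-lsu-KO, against 16.6, 18.2, 17.7 and 13.4 CPM in WT. In [dS] shoots it had 46.1, 40.9, 47.3 and 39.2 CPM in q-lsu-KO, against 28.0, 22.2, 27.1 and 26.9 CPM in WT. These gave 0.98 ± 0.17 and 0.72 ± 0.14 with separate groups. In roots ECT4 had 75.8, 67.7, 80.1 and 73.5 CPM in q-lsu-KO under [nS], against 39.1, 36.8, 45.3 and 33.3 CPM in WT under [nS]. In [dS] roots it had 72.6, 67.7, 76.7 and 68.3 CPM in q-lsu-KO, against 37.8, 43.6, 44.3 and 35.9 CPM in WT. The root values varied little between libraries and gave 0.90 ± 0.13 and 0.83 ± 0.12.

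TBP2 (AT1G55520) encodes a TATA-binding protein. Under [nS], shoots had 53.2, 44.5, 36.7 and 39.5 CPM in q-lsu-KO, against 22.2, 25.2, 24.7 and 27.9 CPM in WT. Under [dS], shoots had 36.1, 48.3, 35.5 and 39.2 CPM in q-lsu-KO, against 25.0, 27.2, 23.7 and 26.9 CPM in WT. Its shoot log2 fold changes were 0.80 ± 0.15 and 0.66 ± 0.14. In roots TBP2 had 63.0, 66.6, 63.9 and 58.0 CPM in q-lsu-KO under [nS], against 32.3, 32, 44.1 and 31.4 CPM in WT under [nS]. Under [dS], roots had 51.0, 68.4, 57.2 and 60.2 CPM in q-lsu-KO, against 35.2, 31.8, 37.0 and 27.4 CPM in WT. At 0.78 ± 0.14 and 0.84 ± 0.13 in roots, its mean of 0.77 ± 0.07 was the lowest among raised genes.

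AT1G55530, a gene of the RING/U-box family to which many ubiquitin ligases belong, had the most even rise. In [nS] shoots it had 36.3, 37.8, 47.5 and 52.2 CPM in q-lsu-KO, against 19.7, 18.8, 19.1 and 17.1 CPM in WT. In [dS] shoots it had 37.1, 40.9, 46.4 and 54.2 CPM in q-lsu-KO, against 19.9, 18, 17.3 and 20.4 CPM in WT. The genotypes did not overlap. In roots AT1G55530 had 72.3, 71.0, 75.8 and 65.4 CPM in q-lsu-KO under [nS], against 33.1, 30.2, 23.6 and 41.8 CPM in WT under [nS]. In [dS] roots it had 64.1, 51.9, 56.7 and 71.9 CPM in q-lsu-KO, against 27.1, 23.6, 33.6 and 25.1 CPM in WT. The 4 log2 fold changes of this gene lay between 1.14 and 1.23, each within 2 SE of 1.

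LNO1 (AT1G55540), a nuclear pore component, was the second gene of the run that was not raised. It averaged 9.62 ± 2.23 CPM in q-lsu-KO [nS] shoots against 6.68 ± 2.00 CPM in WT [nS] shoots, and 9.01 ± 4.34 CPM in q-lsu-KO [dS] shoots against 5.00 ± 1.39 CPM in WT [dS] shoots (SD, n = 4). In roots it averaged 10.2 ± 3.11 CPM in q-lsu-KO under [nS] against 8.5 ± 1.78 CPM in WT under [nS], and 9.67 ± 1.30 CPM in q-lsu-KO under [dS] against 7.48 ± 1.42 CPM in WT under [dS]. The genotypes overlapped in all 4 conditions. Its mean log2 fold change of 0.51 ± 0.15 was the lowest of the run and lay 0.49 below that of a 2-fold rise, just inside the limit of 0.5 for a departure. With 3 to 27 counts per library, its shoot values (0.46 ± 0.32 under [nS] and 0.92 ± 0.29 under [dS]) lay within 2 SE of 1, while both root values (0.32 ± 0.30 and 0.34 ± 0.28) lay more than 2 SE below 1. It passed the limit for a departure when any 1 of 11 libraries was left out, namely replicates 4 of q-lsu-KO [nS] shoots, 2 and 4 of q-lsu-KO [dS] shoots, 2 and 3 of WT [nS] shoots, 1 and 2 of WT [dS] shoots, 4 of q-lsu-KO [nS] roots, 2 of q-lsu-KO [dS] roots, 2 of WT [nS] roots and 4 of WT [dS] roots. AT1G55430 did so without replicate 2 of q-lsu-KO [nS] roots.

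The remaining genes of the run followed the same level. BCDH BETA1 (AT1G55510), the E1 beta subunit of the branched-chain keto acid dehydrogenase, averaged 36.1 ± 7.38 CPM in q-lsu-KO against 16.2 ± 3.55 CPM in WT in [nS] shoots (SD, n = 4), and its 4 log2 fold changes ran from 0.96 to 1.15. AT1G55535, uncharacterised, had 0.63 ± 0.25 and 0.54 ± 0.23 in [nS] and [dS] shoots and 1.16 ± 0.22 and 1.32 ± 0.19 in [nS] and [dS] roots. This tissue difference was not called, with an edgeR interaction of -0.75 ± 0.31 under [dS] (adjusted p = 0.284). AT1G55590, of the RNI-like leucine-rich repeat superfamily, ran from 0.89 to 1.41. BRL1 (AT1G55610), a brassinosteroid receptor related to BRI1, was measured in roots and averaged 25.6 ± 3.97 CPM in q-lsu-KO against 11.1 ± 3.57 CPM in WT under [nS], and 25.1 ± 5.95 CPM in q-lsu-KO against 11.5 ± 1.74 CPM in WT under [dS] (SD, n = 4). In shoots BRL1 had 37 counts over 8 q-lsu-KO libraries against 25 over 8 WT libraries, a ratio of 2.00 (95% exact interval 1.17 to 3.46).

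Apart from AT1G55450, the SD of log2 fold changes between genes of the run was 0.22 to 0.28 in the 4 conditions, beside median SEs of 0.15 to 0.24. The genes were picked by a limit on the fold, which narrows this spread, so it cannot show that the rise was uniform. The number within 2 SE of 1 was 11 of 13 in [nS] shoots, 8 of 13 in [dS] shoots, 16 of 17 in [nS] roots and 15 of 17 in [dS] roots. Scarce genes have wide SEs and meet this limit more easily. In [dS] shoots the genes outside it were AT1G55450, above 1, and CPN60B, ZKT, TBP2 and ECT4, below 1. Their values were 0.68 ± 0.08 for CPN60B, 0.74 ± 0.08 for ZKT, 0.66 ± 0.14 for TBP2 and 0.72 ± 0.14 for ECT4. By strand, 5 genes on the plus strand had a median of mean log2 fold changes of 0.96 and 12 on the minus strand had one of 0.93.

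At the right edge, CLC-F (AT1G55620), of the chloride channel family, was the last gene of the run measured in both tissues. Under [nS], shoots had 2.69, 11.8, 9.62 and 8.41 CPM in q-lsu-KO, against 4.03, 4.11, 7.77 and 3.21 CPM in WT. Under [dS], shoots had 14.3, 8.58, 22.7 and 15.6 CPM in q-lsu-KO, against 5.94, 5.86, 7.78 and 6.53 CPM in WT. The [nS] groups overlapped and the [dS] groups did not, at 0.78 ± 0.38 and 1.11 ± 0.28. In roots CLC-F had 23.3, 13.3, 22.7 and 15.4 CPM in q-lsu-KO under [nS], against 12.7, 8.45, 9.62 and 8.56 CPM in WT under [nS]. Under [dS], roots had 32.9, 19.4, 19.5 and 18.9 CPM in q-lsu-KO, against 8.81, 13.6, 12.9 and 16.0 CPM in WT. Both root groups were separate, at 0.91 ± 0.27 and 0.84 ± 0.21.

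AT1G55630, a pentatricopeptide repeat gene of the kind that acts on organelle RNA, closed the run. It had 3.5, 3.33, 10.8 and 10.3 CPM in q-lsu-KO [nS] roots, against 6.80, 3.62, 1.60 and 4.76 CPM in WT [nS] roots. In [dS] roots it had 10.8, 8.64, 12.0 and 12.6 CPM in q-lsu-KO, against 5.04, 5.30, 8.41 and 4.56 CPM in WT. With overlap under [nS] and none under [dS], it gave 1.00 ± 0.42 and 0.90 ± 0.31. In shoots its pooled counts were 50 in q-lsu-KO and 45 in WT, a ratio of 1.5 (95% exact interval 0.981 to 2.29).

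Between AT1G55630 and the next measured gene lie PRA1.G1 (AT1G55640), a prenylated Rab acceptor gene, AT1G55650 with 2 counts in all and AT1G55660 with none. PRA1.G1 had 35 counts in q-lsu-KO roots against 29 in WT roots, a ratio of 1.59 (0.941 to 2.69), an interval that holds both 1 and 2. The right edge was thus resolved only to the interval between AT1G55630 and PSAG.

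PSAG (AT1G55670), subunit G of photosystem I, was close to the WT level. In [nS] shoots it had 5720, 5807, 5542 and 5644 CPM in q-lsu-KO, against 5322, 5243, 5049 and 5222 CPM in WT. In [dS] shoots it had 4763, 5418, 4860 and 4537 CPM in q-lsu-KO, against 5071, 4822, 4590 and 4840 CPM in WT. At this depth the [nS] groups were separate by a small step, 0.12 ± 0.05, and the [dS] groups overlapped at 0.02 ± 0.05. In roots PSAG had 8.16, 9.99, 19.5 and 39.7 CPM in q-lsu-KO under [nS], against 22.1, 21.1, 32.1 and 14.3 CPM in WT under [nS]. Under [dS], roots had 7.94, 13.7, 12.6 and 17.1 CPM in q-lsu-KO, against 5.04, 21.2, 22.4 and 7.98 CPM in WT. The root libraries of both genotypes spread widely and gave -0.16 ± 0.49 and -0.21 ± 0.56.

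AT1G55673, an uncharacterised gene that overlaps PSAG on the other strand, was measured in shoots. It had 13.5, 7.56, 11.4 and 10.9 CPM in q-lsu-KO [nS] shoots, against 9.57, 14.7, 9.89 and 10.7 CPM in WT [nS] shoots. Under [dS], shoots had 10.1, 15.2, 9.10 and 15.6 CPM in q-lsu-KO, against 11.4, 9.21, 10.1 and 9.99 CPM in WT. The genotypes overlapped, at -0.03 ± 0.25 and 0.34 ± 0.21. The farther flanks, from TAF7 to AT1G55360 on the left and from AT1G55675 to AT1G55760 on the right, had mean log2 fold changes between -0.18 and 0.18.

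Loci too scarce for the fit were described by counts summed over 8 libraries per genotype. In roots, the shoot-branching regulator LAS (AT1G55580) had 17 counts in q-lsu-KO against 8 in WT, a ratio of 2.79 (95% exact interval 1.14 to 7.47). The noncoding RNA AT1G55525 had 14 against 8, a ratio of 2.30 (0.900 to 6.32). AT1G55550, a P-loop hydrolase gene, had 19 against 12 in roots, a ratio of 2.08 (0.958 to 4.70), and 46 against 48 in shoots, a ratio of 1.29 (0.843 to 1.98). Outside the run, AT1G55335 had 39 against 39 in shoots, a ratio of 1.35 (0.843 to 2.16), and AT1G55700 had 10 against 10 in roots, a ratio of 1.31 (0.491 to 3.52). Of these 6 intervals, 4 hold both 1 and 2, so a 2-fold rise could not be told from no change for them at this depth. The interval of LAS lies above 1, and that of AT1G55550 in shoots holds 1 and lies below 2. All cover counting error only.

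The response to sulfur deficiency was compared within each genotype, which the choice of genes did not use. In shoots, 6 of 30 members were called between [dS] and [nS] in q-lsu-KO (2 higher and 4 lower, beside 12.1% of all tested genes, 6.62% higher and 5.44% lower) and 4 of 30 in WT (2 higher and 2 lower, beside 11.4%, 6.18% higher and 5.24% lower). In roots the counts were 2 of 34 in q-lsu-KO (6.15% of all tested genes) and 1 of 34 in WT (6.82%). The 2 plastid genes of the run had the largest falls of all members called. CPN60B in [dS] shoots fell by 1.19 on the log2 scale in q-lsu-KO (-1.19 ± 0.08, edgeR adjusted p = 1.1e-15) and by 0.99 in WT (-0.99 ± 0.08, adjusted p = 1.1e-13). ZKT fell by 0.96 in q-lsu-KO (-0.96 ± 0.08, adjusted p = 4.6e-13) and by 0.87 in WT (-0.87 ± 0.08, adjusted p = 6.0e-12). For both genes all 4 [dS] libraries lay below all 4 [nS] libraries in each genotype.

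ECT4 under [dS] was at 0.41 ± 0.14 in q-lsu-KO shoots (edgeR adjusted p = 0.0357), under the fold threshold, and was called higher in WT shoots at 0.67 ± 0.16 (adjusted p = 0.00140). Without replicate 4 of WT [nS] shoots the WT value was 0.57, also under the fold threshold. CLC-F was higher under [dS] in q-lsu-KO shoots by 0.83 ± 0.31 (adjusted p = 0.0472), a call that was lost with DESeq2 (adjusted p = 0.117) and, at 0.52 to 0.96, without any 1 of 8 libraries (replicates 1, 3 and 4 of either q-lsu-KO shoot group, replicate 1 of WT [dS] shoots and replicate 2 of WT [nS] shoots). The WT shoot means of CLC-F moved the same way without a call, at 6.53 CPM under [dS] against 4.78 CPM under [nS].

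In the flanks, NDF5 fell by 0.65 in [dS] shoots of q-lsu-KO (-0.65 ± 0.14, edgeR adjusted p = 0.000377). WT shoots moved the same way without a call, at 34.9 CPM under [dS] against 46.3 CPM under [nS]. AGP21 (AT1G55330), a cell-surface arabinogalactan protein, averaged 225 ± 52.3 CPM under [dS] against 351 ± 26.6 CPM under [nS] in q-lsu-KO shoots, a fall of 0.65 on the log2 scale (-0.65 ± 0.15, adjusted p = 0.00570). Without replicate 1 of q-lsu-KO [dS] shoots the AGP21 value was -0.51, under the fold threshold. In q-lsu-KO roots AGP21 averaged 212 ± 17.1 CPM under [dS] against 334 ± 31.6 CPM under [nS], at -0.67 ± 0.08 (adjusted p = 1.3e-09; SD, n = 4). WT means of AGP21 moved the same way without a call, at 199 CPM under [dS] against 283 CPM under [nS] in shoots. In WT roots they were 238 CPM under [dS] against 295 CPM under [nS]. AGP21 overlaps AT1G55335 on the other strand.

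AT1G55760, a BTB/POZ-domain gene at the far right, was called higher under [dS] in 3 of the 4 groups. It averaged 31.2 ± 1.39 CPM under [dS] against 20.8 ± 4.34 CPM under [nS] in q-lsu-KO roots (0.60 ± 0.19, edgeR adjusted p = 0.0206), and 35.5 ± 3.93 CPM under [dS] against 20.5 ± 2.72 CPM under [nS] in WT roots (0.75 ± 0.16, adjusted p = 0.000208; SD, n = 4). Its 0.86 ± 0.36 in q-lsu-KO shoots was not called (adjusted p = 0.0775), and in WT shoots it rose by 1.47 ± 0.35 (adjusted p = 0.00112). The q-lsu-KO root call was lost with DESeq2 (adjusted p = 0.0984) and without replicate 1 of q-lsu-KO [dS] roots, replicate 2 of q-lsu-KO [nS] roots or replicate 4 of q-lsu-KO [nS] roots (0.53 to 0.58). CAX5 (AT1G55730), a vacuolar cation/proton exchanger, was higher under [dS] in q-lsu-KO shoots by 0.67 ± 0.24 (adjusted p = 0.0396), and this call was lost with DESeq2 (adjusted p = 0.151) and, at 0.51 to 0.74, without replicate 1, 2 or 3 of either q-lsu-KO shoot group. The WT shoot means of CAX5 moved the same way without a call, at 12.4 CPM under [dS] against 9.21 CPM under [nS].

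**Figure D4:**
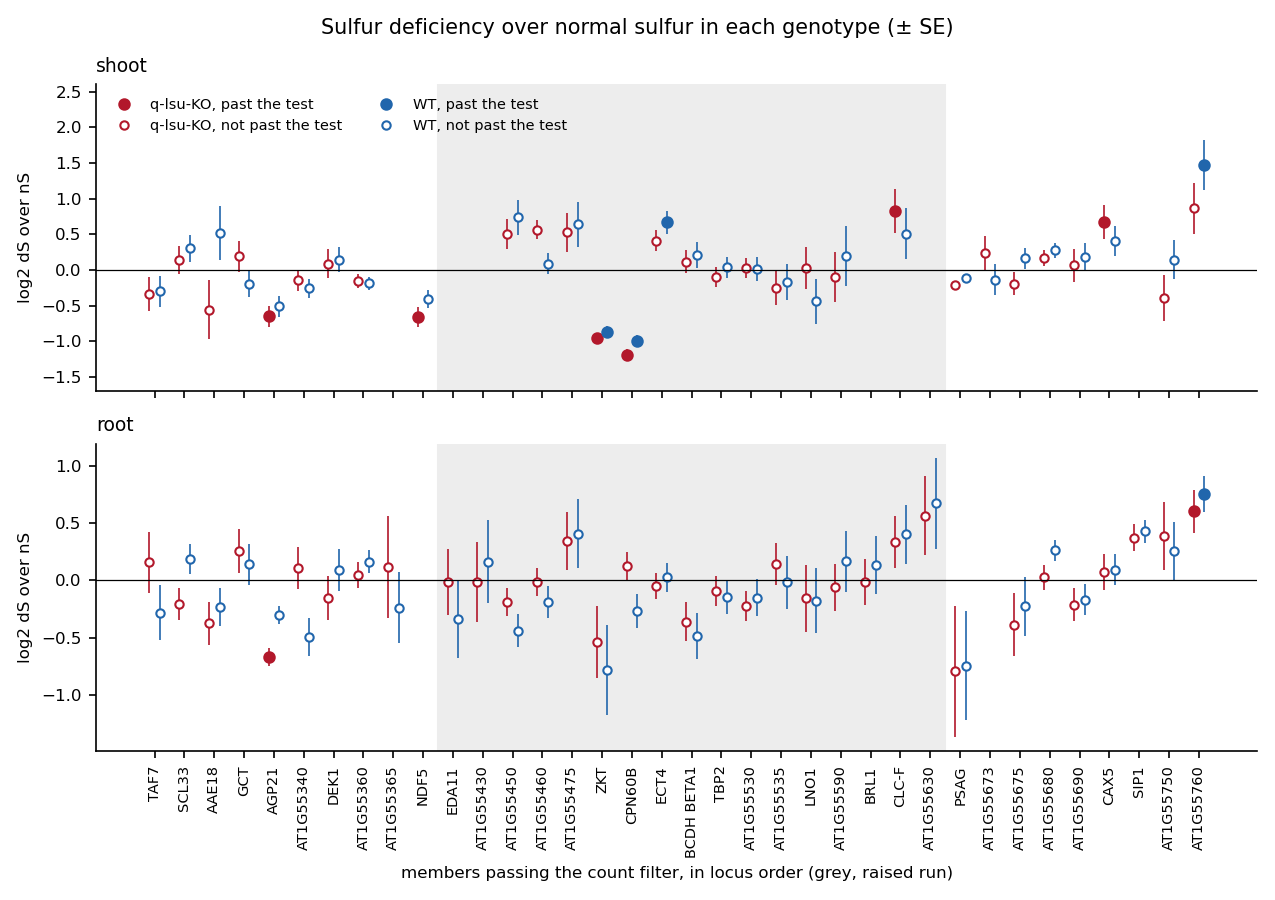
Log2 fold change of [dS] over [nS] (vertical axis, ± SE) in q-lsu-KO (red, left of each pair) and WT (blue) for the measured members in locus order, shoots above and roots below. Filled points passed the test and the run is shaded; in shoots CPN60B and ZKT sit lowest in both genotypes, near -1, and AT1G55760 in WT sits highest at 1.47.

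The interaction of genotype and sulfur asked whether these responses, and with them the rise in q-lsu-KO, differed between supplies. No member was called by edgeR or by DESeq2 in shoots (0 of 30) or roots (0 of 34), beside 0.425% and 0.025% of all tested genes. At an unadjusted p under 0.05 there were 1 in shoots and 4 in roots, and nothing is read from these counts without the share of all tested genes. Within the run the terms ranged from -0.29 to 0.48 in shoots and from -0.23 to 0.39 in roots on the log2 scale, with AT1G55460 highest in shoots (0.48 ± 0.20, edgeR adjusted p = 0.685) and CPN60B highest in roots (0.39 ± 0.19, adjusted p = 0.814). The SEs of these terms were 0.11 to 0.55 in shoots and 0.17 to 0.50 in roots.

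Shoots were compared with roots in WT, which the choice of genes did not use. The comparison covered the 28 members measured in both tissues, since a gene that passed the count filter in only 1 tissue had to differ. Of these, 12 were called under [nS] and 12 under [dS], beside 49.7% and 48.8% of all genes measured in both. This contrast used a common scale for all 32 libraries, which moved the median gene toward shoots by 0.71 on the log2 scale under [nS] and 0.72 under [dS] relative to the CPM above, so directions are given only where they far exceed that shift. Under [nS], ZKT was higher in WT shoots than in WT roots by 6.31 ± 0.14 and CPN60B by 3.98 ± 0.10 (edgeR adjusted p of 6.1e-45 or less). The other 11 genes of the run measured in both tissues were not called under [nS] on this shifted scale. Under [dS], 4 genes of the run were called: AT1G55450, ZKT, CPN60B and BCDH BETA1. With 13 genes of the run measured in both tissues, these counts were below the share of all genes, so no tissue pattern is read from them. The 4 genes of the run measured in roots only were left out, since the count filter fixed their outcome. For ZKT the log2 fold change of q-lsu-KO over WT was 0.74 to 0.83 in shoots, where it is abundant, and 1.04 to 1.29 in roots, where it is scarce. The root SEs were 0.33 and 0.37, and ZKT was not called for the interaction of genotype and tissue.

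Relatives of the members elsewhere in the genome had medians of q-lsu-KO over WT close to 0. Lists of plastid chaperonins, brassinosteroid receptors and signalling, branched-chain amino acid breakdown, TATA-binding and TFIID proteins, YTH readers and nuclear pore proteins held 48 genes, of which 45 were measured in shoots and 44 in roots. The pooled medians were -0.05 in [nS] shoots, 0.01 in [dS] shoots, -0.01 in [nS] roots and 0.07 in [dS] roots. By list, plastid chaperonins had medians of -0.24 in [nS] shoots and -0.23 in [dS] shoots, and brassinosteroid genes had 0.17 and 0.23. The other lists had medians between -0.18 and 0.12 in shoots. In [nS] shoots 3 relatives were called, beside 4.82% of all tested genes, and in [dS] shoots 1, beside 4.17%. Without replicate 3 or 4 of q-lsu-KO [nS] shoots the first count was 1. The second was 0 with DESeq2 and without any 1 of 10 libraries (replicates 1, 2 and 4 of q-lsu-KO [dS] shoots, 2 and 4 of q-lsu-KO [nS] shoots, 1, 2 and 3 of WT [dS] shoots, 1 and 2 of WT [nS] shoots). In roots edgeR and DESeq2 called 0 of 44 under [nS] and 0 of 44 under [dS], where edgeR called 0.163% and 0.157% of all tested genes. At an unadjusted p under 0.05 there were 9 of 45 in [nS] shoots (18.8% of all tested genes), 9 of 45 in [dS] shoots (17.6%), 5 of 44 in [nS] roots (7.56%) and 4 of 44 in [dS] roots (7.63%).

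Of these, DIN4 (AT3G13450), a paralog of BCDH BETA1, rose by 0.77 ± 0.23 in [nS] shoots (edgeR adjusted p = 0.0325) and TBP1 (AT3G13445), the paralog of TBP2, fell by 0.64 (-0.64 ± 0.17, adjusted p = 0.0113). BR6OX2, of brassinosteroid synthesis, fell by 0.85 (-0.85 ± 0.21, adjusted p = 0.00609) in [nS] shoots, and the YTH reader ECT7 fell by 0.69 (-0.69 ± 0.21, adjusted p = 0.0445) in [dS] shoots. TBP1, DIN4, ECT2 (AT3G13460) and CPN60B2 (AT3G13470) are listed side by side on chromosome 3, and their counterparts TBP2, BCDH BETA1, ECT4 and CPN60B are side by side in the run. None of these 4 chromosome 3 genes was called in roots, where ECT2 was at -0.13 ± 0.09 under [nS] and 0.10 ± 0.08 under [dS], and CPN60B2 at 0.18 ± 0.20 and 0.13 ± 0.19. In shoots CPN60B2 was at -0.32 ± 0.10 under [nS] and -0.24 ± 0.11 under [dS]. ECT2 was at -0.06 ± 0.10 and 0.01 ± 0.09 there, and neither gene was called. In [dS] shoots TBP1 was at -0.50 ± 0.15 and DIN4 at 0.55 ± 0.22, also not called. The chromosome 3 genes and their counterparts in the run are similar in sequence and may share reads. How such reads were counted is not given in the sources used here.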

How the data were processed

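For each of the 32 libraries the authors deposited a table of raw counts by gene, in whole numbers, which entered the tests unchanged. STAR 2.7.8a, DESeq2 and TAIR10 are named in the submitters' processing notes. Neither the counting program nor its annotation, its strand setting or its treatment of molecular identifiers is given in the sources used here. Coordinates were not used, since the files hold none to compare with the reference (TAIR10.1). The test was the two-sided quasi-likelihood F-test of edgeR 4.0.16 with limma 3.58.1 in R 4.3.3, over all genes that passed filterByExpr (minimum count 10), with TMM factors and robust dispersions. Models of group means held 16 libraries for contrasts within a tissue and 32 for contrasts with tissue. Calls needed an adjusted p (Benjamini-Hochberg) under 0.05 together with over 1.5-fold, as in the study. SEs are of the log2 fold change (4 libraries against 4), and the SE of a mean over conditions joins theirs. CPM are TMM-scaled within a tissue. Ratios of pooled counts have 95% Clopper-Pearson intervals, for counting error only. At totals of 893225 to 2857129 counts, scarce genes are the least precise.

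The members, the lists and the tests were chosen with earlier results of these data known. Named are all measured genes of the run and 2 beyond each edge (per library at the edges, for departures and for the 6 most abundant others), members called in sulfur or interaction contrasts, scarce members with at least 20 counts, called relatives and LSU2. Alternatives were DESeq2 1.42.0, RLE factors, no filter, a mean CPM of at least 5, a block of replicate numbers, only the libraries compared, adjusted p alone, other limits for the run, and each library left out. Leaving out replicate 1 of both WT shoot groups together was chosen after seeing the data. The procedure was tested on simulated data. Replicates differed by more than sampling noise, so each was counted. No sequences are shown.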

Additional observations from a re-analysis of the deposited data

Results flagged for a closer look

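Groups of 4 libraries were checked for a library far from the other 3, over the genes given library by library and the median of the run. Of 104 groups, 6 had one, and chance alone gives about 1 in 20. NDF5 had 38.6 CPM in replicate 2 of q-lsu-KO [dS] shoots, where the others had 27.7 to 29.2 CPM. CLC-F had 32.9 CPM in replicate 1 of q-lsu-KO [dS] roots, where the others had 18.9 to 19.5 CPM. ZKT had 5.05 CPM in replicate 3 of WT [dS] roots, beside 2.28 to 2.52 CPM. AT1G55460 had 34.3 CPM in replicate 1 of q-lsu-KO [nS] shoots, beside 47.5 to 48.8 CPM, and 33.8 CPM in replicate 3 of WT [dS] shoots, beside 26.7 to 27.3 CPM. TBP2 had 44.1 CPM in replicate 3 of WT [nS] roots, beside 31.4 to 32.3 CPM.

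The genotype difference itself differed between tissues for AT1G55450, by 1.85 on the log2 scale (shoot minus root) under [nS] and 1.36 under [dS], and for CPN60B by -0.63 under [dS].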

How the results depend on the processing

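Under all alternatives run, no value of the run and no call reversed direction. Of 1341 alternative values for genes of the run (q-lsu-KO over WT), 1327 moved by less than the spread between replicates and 14 by more. Of 429 for the 16 calls in sulfur and interaction contrasts, 400 kept the call and 29 lost it. With DESeq2, 7 members in place of 11 were called in [dS] roots (q-lsu-KO over WT), and 1 in place of 2 for [dS] over [nS] in q-lsu-KO roots. With adjusted p alone, 5 members were called for [dS] over [nS] in WT roots and 7 in WT shoots. Relatives called in [dS] shoots were 0 with DESeq2, 0 with only the libraries compared, 0 without replicate 1 of both WT shoot groups and 3 with adjusted p alone. The run held 9 measured genes with a stricter limit on the fold and 11 where all conditions were required. The cause was not tested.

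With single libraries left out, the run held 11 to 17 measured genes, 1 to 2 genes departed from a 2-fold rise, and the median of the run was 0.77 to 0.91 in [dS] shoots and 1.01 to 1.12 in [dS] roots. Members called were 1 to 2 for [dS] over [nS] in q-lsu-KO roots and 1 to 2 for the interaction of genotype and tissue under [dS], and relatives called were 1 to 4 in [nS] shoots and 0 to 1 in [dS] shoots.

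Same-numbered q-lsu-KO and WT libraries did not deviate together (correlations of -0.10 to 0.04 over 16 pairs, 1 of 16 best matched to its own number). With a block of replicate numbers, the members called (q-lsu-KO over WT) were 8 in [nS] shoots, 11 in [dS] shoots, 10 in [nS] roots and 11 in [dS] roots, the run kept 17 measured genes, and CAX5 in q-lsu-KO shoots lost its call for [dS] over [nS] (adjusted p = 0.0508). Depth limits the loci with few counts and both edges of the run.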
